A study of Mus musculus with 6 samples.

Results

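The ATP receptors and the thrombin receptor family of keratinocytes, with tissue factor, were described in cultured mouse keratinocytes lacking Ovol1 alone or Ovol1 and Ovol2 together. The genes were chosen by symbol: P2rx2, P2rx4, P2rx7, P2ry1 and P2ry2 for ATP and related nucleotides, F2r, F2rl1, F2rl2 and F2rl3 for thrombin and related proteases, and F3 for tissue factor. Of these 10 genes 9 were measured among 19938 tested genes, and F2rl1 was not analysed here. Each of the 9 had 1 probe set that named a single gene, so the rule of taking the brightest probe set made no choice among them. The family was put forward with the low values of P2rx2 and F2rl2 in DKO against control already known, so their values in that contrast are a description, and no p is given for them there. DKO against Ovol1 KO uses the same DKO arrays, so the pair is described without a p in that contrast as well. Ovol1 KO against control uses the same control arrays, so no p is given for the pair there either.

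RNA was hybridised to 6 Affymetrix arrays, 2 for each of 3 groups, and each array pooled 2 mice. The Ovol1/2 double knockout (DKO) carried 1 floxed and 1 null Ovol2 allele with K14-Cre, a recombinase transgene driven in basal keratinocytes, on an Ovol1-/- background. The Ovol1 KO group was Ovol1-/-, and the labels name no Ovol2 allele for it. Control animals were Ovol2 flox/+ with either 1 lost copy of Ovol1 or K14-Cre, and the labels do not say which array held which. Thus DKO and Ovol1 KO share the loss of Ovol1, while DKO and control share a floxed Ovol2 allele. All cells came from C57BL/6 skin at E18.5, grew in culture for 2 to 5 days, received calcium and grew for another 3 to 5 days. Calcium starts differentiation in such cultures, and the series asked how the loss of Ovol genes changes expression under it. Both Ovol genes code for DNA-binding zinc finger proteins of epithelial cells.

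Extracellular ATP reaches cells from damage, nerves or secretion and opens ionotropic receptors, which are cation channels encoded by P2rx genes, or activates metabotropic receptors, which are G protein-coupled and encoded by P2ry genes. Keratinocytes use them to raise intracellular calcium after wounding, and calcium in turn steers their differentiation. Protease-activated receptors are G protein-coupled receptors that a protease unmasks by cutting their N-terminus, so that the new end acts as a tethered ligand. Tissue factor starts coagulation on the cell surface and so leads to thrombin, the main activator of several of these receptors.

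The arrays carried keratinocyte RNA: Krt5 lay between 13.68 and 13.94 and Krt14 between 13.61 and 13.67 in log2(intensity + 16) on all 6. The differentiation keratin Krt1 had log2 levels of 14.70 and 12.40 in DKO, 8.97 and 9.27 in Ovol1 KO, and 9.48 and 9.33 in control. Its partner Krt10 had 13.93 and 13.01 in DKO, 9.28 and 9.48 in Ovol1 KO, and 9.77 and 8.89 in control. Both rose in DKO against control (limma adjusted p = 0.022 and 0.0035), and their part in the results below was not tested. All values called log2 levels below are on this scale, after quantile normalization. Ovol1 had log2 levels of 10.58 and 10.59 in DKO, 10.53 and 10.22 in Ovol1 KO and 10.27 and 9.85 in control. Ovol2 had 8.71 and 8.32 in DKO, 9.0045 and 8.9929 in Ovol1 KO, and 8.12 and 8.82 in control. Neither probe set is stated to lie in a deleted part, so these levels check no label. All arrays are labelled female, but Xist, the RNA of the silenced X chromosome, lay at 12.12 and 12.26 in DKO and at 11.97 in Ovol1 KO 2, against 4.59 in Ovol1 KO 1 and 4.71 and 4.65 in control. The Y-linked gene Kdm5d split the arrays the other way, with 7.53 and 7.64 in DKO and 7.50 in Ovol1 KO 2, and with 14.70 in Ovol1 KO 1 and both control arrays. Genotype and the levels of these genes thus separate DKO from control in the same way, and in that contrast they cannot be told apart. In RNA of whole cultures, fewer cells of a type and less RNA per cell cannot be told apart either.

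Among the ATP-gated channels, P2rx2 was the gene whose arrays lay furthest apart. P2rx2 encodes a slowly closing cation channel best known from sensory neurons. Its deposited intensities were 31.6 and 21.7 in DKO, 1724 and 1174 in Ovol1 KO, and 2815 and 2167 in control. The log2 levels were 5.61 and 5.20 in DKO, 10.74 and 10.21 in Ovol1 KO, and 11.41 and 11.10 in control. Both DKO arrays thus lay far below the other 4, and both Ovol1 KO arrays lay below both control arrays. The DKO mean of 5.40 ± 0.29 stood against 11.26 ± 0.22 in control (SD, n = 2 each), a log2 fold change of -5.85 (SE 0.26). Its log2 fold change ranked number 4 from the lowest of 19938 genes. The summed intensity of 4 markers of Schwann cells and neurons was 1218 and 1543 in DKO, 1475 and 1331 in Ovol1 KO, and 1517 and 1503 in control, ranges that overlapped. The 10th percentile of all probe sets was 5.42, so P2rx2 in DKO lay at the dim end, where no detection call tells signal from background. The size of the difference depends on this end of the scale: adding 1 to the intensities in place of 16 gave a log2 fold change of -6.49, and adding 64 gave -4.78.

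P2rx4 and P2rx7 are neighbours on chromosome 5. P2rx4 encodes a channel found on many cell types and on lysosomes, and P2rx7 a channel that opens at high ATP and is known in immune cells for starting the Nlrp3 inflammasome. P2rx4 had log2 levels of 9.50 and 10.17 in DKO, 10.54 and 10.20 in Ovol1 KO, and 10.60 and 10.50 in control. The DKO arrays lay lowest, but DKO 2 was nearly level with Ovol1 KO 2. The log2 fold change of DKO against control was -0.72 (SE 0.26, 95% interval -1.32 to -0.11), which did not pass over all genes (limma adjusted p = 0.25).

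P2rx7 separated the arrays by replicate number in 2 of the groups. Its log2 levels were 6.95 and 7.10 in DKO, 9.49 and 7.48 in Ovol1 KO, and 9.59 and 7.59 in control. Replicate 1 of Ovol1 KO and of control stood about 2 log2 units above every other array, and DKO 1 did not share this. The DKO against control difference was -2.64 between the arrays of replicate 1 and -0.49 between those of replicate 2. The fitted log2 fold change was -1.56 (SE 0.78, adjusted p = 0.45), with an interval of -3.42 to 0.29 that spans 0, and it became 0.46 when Xist was a covariate.

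Markers of other cell types were read beside P2rx7 because it is not specific to keratinocytes. All 8 of 8 melanocyte markers were higher in replicate 1 than in replicate 2 both in Ovol1 KO and in control. Tyrp1, a melanin enzyme, had log2 levels of 8.46 and 5.72 in DKO, 11.05 and 5.63 in Ovol1 KO, and 10.52 and 5.81 in control. The summed intensity of the melanocyte list was 1107 to 1802 in DKO, 1489 to 6871 in Ovol1 KO and 1395 to 5146 in control. Among 9 markers of macrophages, Langerhans cells and mast cells, 3 followed that split. Csf1r, a macrophage receptor, lay at 7.08 and 7.33 in DKO, 7.82 and 7.20 in Ovol1 KO, and 8.07 and 7.25 in control, while the leukocyte gene Ptprc lay between 6.69 and 6.97 on all arrays. The summed intensity of that list was 4422 to 5020 in DKO, 3449 to 5458 in Ovol1 KO and 4119 to 6441 in control. No marker of either list was listed at 0, and the part of other cell types in the P2rx7 values was not tested.

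**Figure D1:**
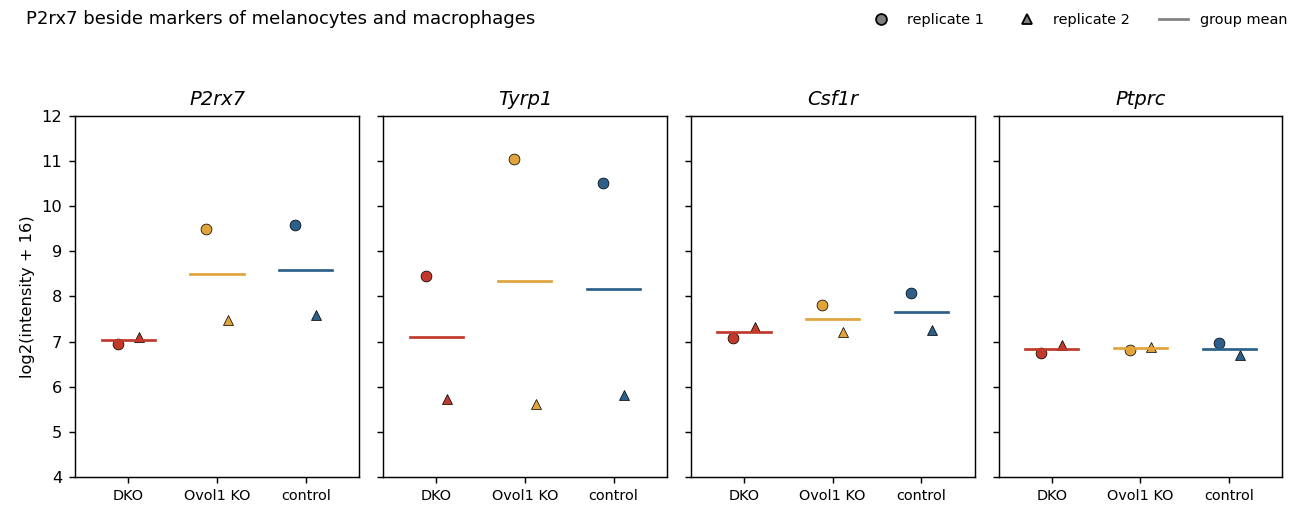
Log2(intensity + 16) of P2rx7, the melanocyte marker Tyrp1, the macrophage marker Csf1r and the leukocyte marker Ptprc in DKO, Ovol1 KO and control arrays. Circles are replicate 1, triangles replicate 2 and lines group means of 2 arrays. P2rx7 lay at 9.49 and 9.59 in replicate 1 of Ovol1 KO and control and between 6.95 and 7.59 elsewhere, while Tyrp1 was high in replicate 1 of all 3 groups.

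The metabotropic receptors P2ry1 and P2ry2 did not pass over all genes. P2ry1, the ADP receptor that activates platelets and signals through Gq, had log2 levels of 9.13 and 8.33 in DKO, 8.09 and 8.03 in Ovol1 KO, and 8.29 and 7.92 in control. It was the one member with both DKO arrays above all the others, though DKO 2 exceeded control 1 by little. The log2 fold change of DKO against control was 0.62 (SE 0.29, adjusted p = 0.41). P2ry2, the receptor for ATP and UTP known from keratinocyte calcium responses, had log2 levels of 9.21 and 8.16 in DKO, 9.93 and 9.61 in Ovol1 KO, and 9.86 and 9.25 in control. DKO 2 was the lowest array, and DKO 1 lay just under control 2. Here the log2 fold change was -0.87 (SE 0.38, adjusted p = 0.37).

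Of the thrombin receptor family, F2rl2 had the widest separation. F2rl2 encodes a receptor that in mouse platelets serves as a cofactor for cutting the product of F2rl3 by thrombin. Its deposited intensities were 62.2 and 24.2 in DKO, 2164 and 1473 in Ovol1 KO, and 2211 and 2445 in control. The log2 levels were 6.39 and 5.29 in DKO, 11.08 and 10.53 in Ovol1 KO, and 11.09 and 11.26 in control. Both DKO arrays lay far below the other 4, and the DKO arrays differed from each other by more than did those of the other groups. The DKO mean was 5.84 ± 0.78 and the control mean 11.18 ± 0.12 (SD, n = 2 each), a log2 fold change of -5.34 (SE 0.37) that ranked number 8 from the lowest of 19938. Adding 1 in place of 16 gave -5.82, and adding 64 gave -4.46.

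F2r lies near F2rl2 on chromosome 13 and encodes the main thrombin receptor of most cells. Its log2 levels were 9.74 and 9.48 in DKO, 10.98 and 10.14 in Ovol1 KO, and 11.15 and 10.35 in control. Both DKO arrays lay below the other 4, and replicate 1 was above replicate 2 in every group. The log2 fold change of DKO against control was -1.14 (SE 0.36, interval -1.98 to -0.30), which did not pass over all genes (adjusted p = 0.18). With single arrays left out it ran from -1.54 to -0.74. With Xist as a covariate it was -0.28 (limma adjusted p = 0.96). F2r is also known from endothelial cells, and the summed intensity of 6 endothelial markers was 455 and 554 in DKO, 1527 and 784 in Ovol1 KO, and 1939 and 777.3 in control. Most of that spread lay in Kdr, a receptor for vascular growth factor, with log2 levels of 6.79 and 6.65 in DKO, 9.95 and 8.63 in Ovol1 KO, and 10.49 and 8.51 in control. Pecam1 was also low in DKO, at 6.20 and 5.98, against 7.67 and 6.75 in control. Over the 6 markers 3 log2 fold changes of DKO against control were above 0 and 3 below, with a median of 0.02, and 0 were called in limma, with 2 at an unadjusted p below 0.05. Their part in the F2r values was not tested. F2rl3, which encodes the low-affinity thrombin receptor of mouse platelets, had log2 levels of 7.48 and 7.32 in DKO, 7.47 and 7.46 in Ovol1 KO, and 7.44 and 7.42 in control. The DKO arrays overlapped those of control, and the interval of DKO minus control ran from -0.40 to 0.34, so a 2-fold change, a log2 difference of 1, lay outside it.

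F3 encodes tissue factor, the cell-surface receptor that starts coagulation with factor VII. Its log2 levels were 11.30 and 12.12 in DKO, 12.27 and 12.27 in Ovol1 KO, and 12.63 and 12.62 in control. The groups did not overlap: DKO was lowest, Ovol1 KO in between and control highest, with DKO 2 close to the Ovol1 KO arrays. The log2 fold change of DKO against control was -0.92 (SE 0.24, interval -1.48 to -0.36), which did not pass over all genes (adjusted p = 0.11). With single arrays left out it ran from -1.32, without DKO 2, to -0.51.

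The sequence just before the start of F2rl2 is shown with those of its neighbour F2r and of F3, since the 3 genes differ widely in how far apart DKO and control lay. RefSeq windows of assembly GRCm38.p6 were matched for 8 of the 10 genes, and P2rx2 was not among them. The windows hold the 250 bases before each start. They were searched on both strands for CCGTTA, the core bound by Ovol factors, CACCTG, an E-box bound by Zeb repressors, and TGANTCA, the AP-1 element. Capitals mark the matches to the E-box and AP-1 letters.
F2rl2, chr13:95696670-95696919, plus strand: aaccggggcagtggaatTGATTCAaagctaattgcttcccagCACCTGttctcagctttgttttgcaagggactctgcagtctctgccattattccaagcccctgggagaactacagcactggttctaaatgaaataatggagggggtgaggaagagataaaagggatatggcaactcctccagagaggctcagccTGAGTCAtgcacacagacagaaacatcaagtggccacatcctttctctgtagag
F2r, chr13:95618467-95618716, minus strand: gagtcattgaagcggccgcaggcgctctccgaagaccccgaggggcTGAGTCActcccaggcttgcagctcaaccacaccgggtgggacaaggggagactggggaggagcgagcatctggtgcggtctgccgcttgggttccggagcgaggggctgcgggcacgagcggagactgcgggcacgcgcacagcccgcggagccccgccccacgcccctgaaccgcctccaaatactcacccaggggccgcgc
F3, chr3:121723287-121723536, plus strand: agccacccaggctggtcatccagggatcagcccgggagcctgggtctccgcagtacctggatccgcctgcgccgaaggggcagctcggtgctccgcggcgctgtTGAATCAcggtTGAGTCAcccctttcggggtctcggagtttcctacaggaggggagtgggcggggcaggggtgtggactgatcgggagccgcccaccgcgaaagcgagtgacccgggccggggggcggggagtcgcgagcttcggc
F2rl2 held AP-1 letters at 233 and 54 bases before the start and the E-box letters at 208. F3 held 2 AP-1 matches, at 146 and 135 bases before its start, and F2r held 1 at 204. Among the windows not shown, P2rx7 held AP-1 letters at 249 in 1 window, and P2ry2 the E-box letters at 213 in 1. The windows of P2rx4, P2ry1 and F2rl3 held neither. The AP-1 letters occur in 6.75% of 32851 such windows and the E-box letters in 17.2%. CCGTTA, present in 2.18% of the windows, was not in any of the members' windows. Such matches describe the letters and are no evidence of binding.

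**Figure D2:**
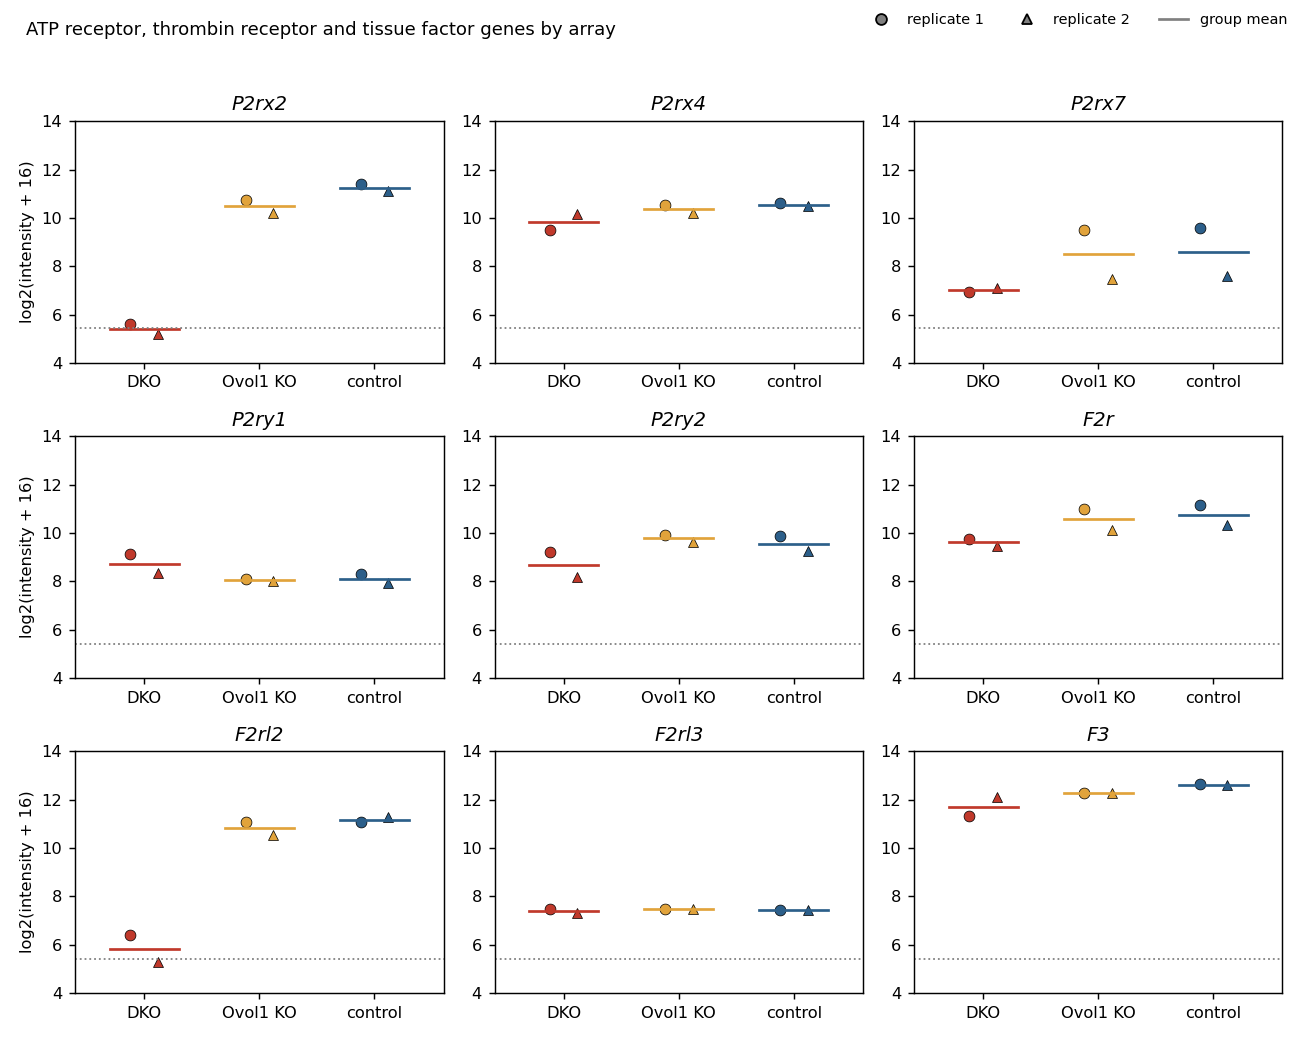
Log2(intensity + 16) of the 9 measured genes in DKO, Ovol1 KO and control arrays. Circles are replicate 1, triangles replicate 2, lines group means of 2 arrays, and the dotted line is the 10th percentile of all probe sets (5.42). P2rx2 and F2rl2 in DKO lay near that line and above 10 in the other groups, while F2rl3 lay between 7.32 and 7.48 on all arrays.

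At a limma adjusted p below 0.05, 3.2% of all tested genes were called in DKO against control, 2.26% lower and 0.943% higher. Past that threshold stood 2 of the 9 genes, both lower and 0 higher, and they are the pair known beforehand, P2rx2 and F2rl2, so nothing is read from this count. The counts and the median that follow include both. At an unadjusted p below 0.05 stood 5 of the 9, against 14.5% of all genes. The arrays of the 2 groups did not overlap for 8 of the 9 genes, 7 lower and 1 higher in DKO, where 44.6% of all genes did not overlap, 21.5% lower and 23.1% higher. The median log2 fold change of the 9 was -0.92, and that of all genes was 0.02. With Xist as a covariate 0 of the 9 stood past the limma threshold and 2 at an unadjusted p below 0.05, and the log2 fold change was -5.31 for P2rx2 and -4.76 for F2rl2. The covariate varies within a group only between Ovol1 KO 1 and Ovol1 KO 2.

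DKO was also set against Ovol1 KO, which shares the loss of Ovol1 and has no Ovol2 allele named. DKO differs from it by floxed and null Ovol2 alleles and by K14-Cre. Ovol1 KO 1 also had low Xist and high Kdm5d, unlike both DKO arrays. The DKO arrays are the same as above, so this contrast is not a second measurement of them. For P2rx2 DKO minus Ovol1 KO was -5.07 in log2 (SE 0.26), and for F2rl2 it was -4.97 (SE 0.37). The pair was put forward for low values on these DKO arrays, so both values are a description. They were the 2 of 9 called lower, with 0 higher, where 2.15% of all genes were called, 1.49% lower and 0.657% higher. Nothing is read from this count. With single arrays left out, the log2 fold change ran from -5.34 to -4.81 for P2rx2 and from -5.52 to -4.42 for F2rl2. Against Ovol1 KO 2 alone, the array with high Xist, the DKO mean stood at a log2 difference of -4.81 for P2rx2 and -4.70 for F2rl2, values that rest on that 1 Ovol1 KO array. Of the rest, P2ry2 had -1.08 (SE 0.38, adjusted p = 0.28), F2r -0.95 (SE 0.36, adjusted p = 0.32) and P2rx7 -1.46 (SE 0.78, adjusted p = 0.50). F3 had -0.56 (SE 0.24, adjusted p = 0.38), and with single arrays left out it ran from -0.96, without DKO 2, to -0.15. The log2 fold change was 0.67 for P2ry1, -0.54 for P2rx4 and -0.06 for F2rl3, none of which passed. The groups did not overlap for 8 of the 9, 7 lower and 1 higher in DKO, where 42.2% of all genes did not overlap, 16% lower and 26.1% higher.

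Ovol1 KO against control compared the loss of Ovol1 with animals that carried a floxed Ovol2 allele and either a lost copy of Ovol1 or K14-Cre. Ovol1 KO 2 also had high Xist and low Kdm5d, unlike both control arrays. The contrast thus does not isolate the loss of Ovol1. None of the 9 genes was called, as 0 of 19938 genes were in limma, while 0.813% of all genes and 1 of the 9 had an unadjusted p below 0.05. That gene was P2rx2, with a log2 fold change of -0.78 (SE 0.26, interval -1.40 to -0.16). P2rx2 and F2rl2 were put forward for differences from these same control arrays, so their values here are a description. Nothing is read from the count of 1. Both Ovol1 KO arrays were below both control arrays for P2rx2, F2rl2 and F3, and above them for F2rl3. Among all genes 24.1% did not overlap, 18.3% lower and 5.8% higher. The log2 fold change was -0.37 (SE 0.37) for F2rl2 and -0.36 (SE 0.24) for F3. The highest of the 9 log2 fold changes was that of P2ry2, at 0.22 (SE 0.38). The interval for P2rx7, -1.96 to 1.75, does not exclude a 2-fold change in either direction.

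**Figure D3:**
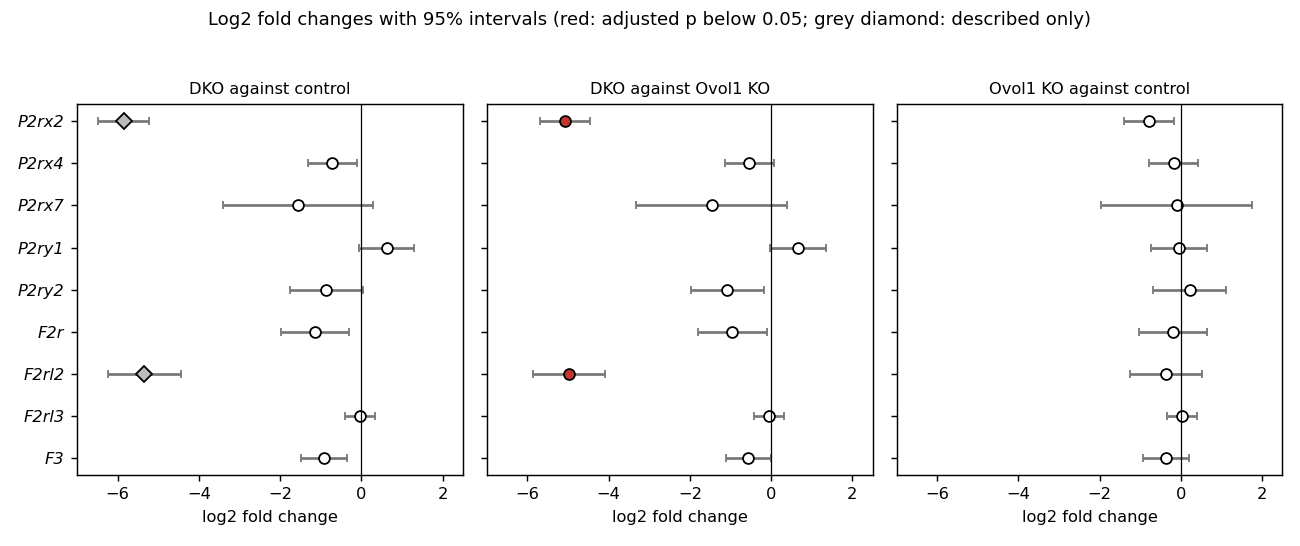
Log2 fold changes of the 9 measured genes in DKO against control, DKO against Ovol1 KO and Ovol1 KO against control. Points are limma estimates from 6 arrays, bars 95% intervals, red points have an adjusted p below 0.05, and grey diamonds mark the 2 genes known beforehand in DKO against control. In DKO against Ovol1 KO the red points are the same 2 genes on the same DKO arrays, and they are a description as well. P2rx2 and F2rl2 lay near -5 or below in both DKO contrasts, and all other estimates lay between -1.56 and 0.67.

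The genes nearest in pattern to P2rx2 and to F2rl2 are given as a description. Likeness was taken as the root mean square difference of the 6 log2 levels, each gene first centred on its own mean, and it describes 6 arrays in which a single step between DKO and the rest is the main feature. Both genes were put forward for that step, so their closeness to each other restates the choice. The difference between P2rx2 and F2rl2 was 0.33 and made F2rl2 the nearest to P2rx2, predicted genes and unnamed transcripts left out. Next to P2rx2 came the claudin gene Cldn7 at 0.36, with log2 levels of 4.52 and 4.51 in DKO, 10.23 and 9.28 in Ovol1 KO, and 10.40 and 9.44 in control. Dynap followed at 0.36, with 8.03 and 7.46 in DKO, 13.52 and 13.30 in Ovol1 KO, and 13.44 and 13.32 in control. The nearest gene to F2rl2 was Tmprss11e at 0.31, a membrane serine protease gene of the list below, with 7.40 and 6.34 in DKO, 11.44 and 11.05 in Ovol1 KO, and 11.40 and 11.66 in control. P2rx2 and Dynap, at 0.35, came next.

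**Figure D4:**
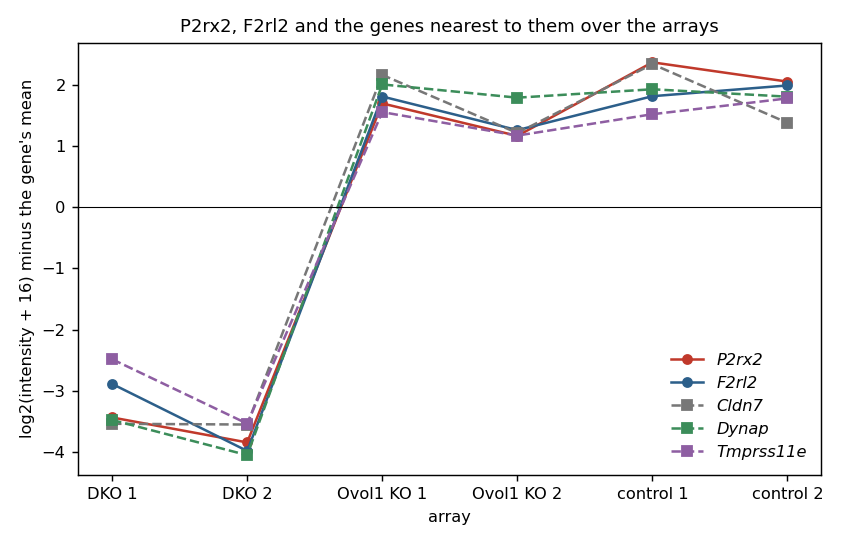
Log2(intensity + 16) of P2rx2, F2rl2 and the 3 other genes nearest to them, each minus its own mean over the 6 arrays, by array. Each of the 5 genes lay below its mean in both DKO arrays and above it in the other 4.

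The genes beside the 2 on their chromosomes did not pass. P2rx2 on chromosome 5 has Pole and Lrcol1 as its nearest tested neighbours, with DKO against control log2 fold changes of -0.30 (SE 0.24, adjusted p = 0.68) and 0.04 (SE 0.21, adjusted p = 0.97). F2rl2 has Iqgap2 and Sv2c, with 0.92 (SE 0.46, adjusted p = 0.44) and 0.07 (SE 0.17, adjusted p = 0.92). Iqgap2 lies between F2r and F2rl2.

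Further genes of the same pathways were taken from lists made with earlier results of these data known. Among 10 measured other purinergic receptor genes, DKO against control gave 1 rise and no fall. Over all genes 0.943% were called higher and 2.26% lower. The gene that rose was P2ry4, which encodes a UTP receptor and lies on the X chromosome. P2ry4 had log2 levels of 8.35 and 8.52 in DKO, 6.78 and 6.95 in Ovol1 KO, and 6.92 and 7.02 in control, a rise of 1.46 (SE 0.17, adjusted p = 0.0075). Both DKO arrays were above the other 4, and Ovol1 KO 2, which shares their high Xist, lay with the control arrays. P2ry4 was called in 15 of 16 alternative settings, all but the Xist covariate. The median log2 fold change of the list was -0.03.

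Among 13 genes of ATP release and breakdown there was 1 fall and no rise, where 2.26% of all genes were called lower. The median log2 fold change was -0.11. Slc17a9, the transporter that loads ATP into secretory vesicles, had log2 levels of 6.41 and 5.89 in DKO, 8.67 and 7.79 in Ovol1 KO, and 8.41 and 8.21 in control. Both DKO arrays were below the others, and Slc17a9 fell by 2.16 (SE 0.32, adjusted p = 0.019), a call lost without DKO 1 (-2.42, adjusted p = 0.060) or DKO 2 (-1.90, adjusted p = 0.098). Without control 2 the list also held a call on the higher side, and with Xist as a covariate 0 of its genes were called. Of 17 coagulation factors and inhibitors limma called 0, and the unadjusted p was below 0.05 for 3, against 14.5% of all genes. Thbd, the thrombin-binding cofactor thrombomodulin, stood at 1.52 in log2 (SE 0.37, adjusted p = 0.096). Pros1, the anticoagulant protein S, stood at 1.56 (SE 0.38, adjusted p = 0.096), and both passed without control 2 (1.98 and 1.97).

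The proteases known to cut protease-activated receptors, with their inhibitors, held 8 falls and no rise among 19 measured genes. Where 2.26% of all genes were called lower, this list had a median of -0.63 against 0.02 for all genes. Of the 19 log2 fold changes 13 were below 0 and 6 above. Klk13 stood at 2.83 (SE 0.82, adjusted p = 0.16) and Mmp13 at 2.63 (SE 0.71, adjusted p = 0.13). For both genes the DKO arrays lay above the control arrays, and neither passed. Tmprss11e fell by 4.66 (SE 0.35, adjusted p = 0.0017), and Tmprss11d, an airway-type protease of the same gene family, fell by 4.42 (SE 0.49, adjusted p = 0.0070). St14, which encodes matriptase, had log2 levels of 10.07 and 10.04 in DKO, 11.98 and 11.55 in Ovol1 KO, and 12.05 and 11.69 in control, and it fell by 1.81 (SE 0.19, adjusted p = 0.0062). Its partner Prss8, or prostasin, fell by 2.27 (SE 0.21, adjusted p = 0.0039). These 4 were called with any single array left out. With Xist as a covariate 0 genes of the list were called, where 8 of all genes were. The log2 fold change was then -4.25 for Tmprss11e, -3.55 for Tmprss11d, -1.38 for St14 and -1.73 for Prss8.
The matriptase inhibitor genes Spint1 and Spint2 also fell, with log2 fold changes of -1.26 (SE 0.20, adjusted p = 0.027) and -0.63 (SE 0.11, adjusted p = 0.031). The kallikrein gene Klk8 and the protease gene Tmprss2 fell as well, with -1.29 (SE 0.18, adjusted p = 0.016) and -2.89 (SE 0.50, adjusted p = 0.031). Klk8 lost its call without DKO 1 (-1.34) or DKO 2 (-1.23), Tmprss2 without DKO 2 (-2.22) or either Ovol1 KO array (-2.89), Spint1 without DKO 2 (-1.02), either Ovol1 KO array (-1.26) or control 1 (-1.04), and Spint2 whichever array was left out (-0.65 to -0.60). The count of the list changed with single arrays left out, with calls on the higher side as well without control 1. The calls over all genes also changed.

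Of 22 genes for Gq, related G proteins and calcium signalling limma called 0, with a median of -0.04. An unadjusted p below 0.05 was held by 6 of them, against 14.5% of all genes. Those with the smallest p were Plcb4, a phospholipase C, which stood at 0.73 in log2 (SE 0.19, adjusted p = 0.12), and Gnaq, the Gq alpha subunit, with -0.54 (SE 0.15, adjusted p = 0.14). Among 20 genes known to be induced through these receptors there were 5 falls and no rise, where 2.26% of all genes were called lower. The median log2 fold change was -1.24, against 0.02 for all genes. The cytokine gene Il1a fell, at -3.87 in log2 (SE 0.70, adjusted p = 0.038). The chemokine genes Cxcl1 and Cxcl5 fell, with -3.40 and -3.17 (adjusted p = 0.032 and 0.0075), and so did the urokinase gene Plau and its receptor gene Plaur, with -1.33 and -3.87 (adjusted p = 0.032 and 0.019). The count of this list changed with single arrays left out, and so did the calls over all genes. The log2 fold change of Il1a then ran from -4.89 to -2.85 and that of Plaur from -4.52 to -3.22. With Xist as a covariate 0 genes of this list were called. The early response genes Egr1 and Fos had log2 fold changes of 0.09 and 0.11 and overlapped between the groups. Other such genes of the list lay lower in both DKO arrays than in both control arrays. Ccn1 had log2 levels of 10.21 and 11.48 in DKO and 12.21 and 12.04 in control. Ccn2 had 8.86 and 9.95 against 12.98 and 11.59, and Fosl1 had 8.53 and 9.04 against 10.60 and 9.15. Of the 20 log2 fold changes 14 were below 0 and 6 above. DKO against Ovol1 KO, with the same DKO arrays, gave 8 falls among the proteases and inhibitors and 2 among the genes induced through the receptors. Over all genes 1.49% were called lower in that contrast. The counts of both lists changed with single arrays left out, and so did the calls over all genes. The log2 fold change of Prss8 then ran from -2.12 to -1.59 and that of St14 from -1.92 to -1.50. Both Prss8 and St14 lost their calls in this contrast without DKO 1, DKO 2 or Ovol1 KO 1. Without either control array the proteases and inhibitors also held calls on the higher side, and the induced genes held more falls. With Xist as a covariate 1 of the proteases and inhibitors was called and 0 of the induced genes, where 73 of all genes were.

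**Figure D5:**
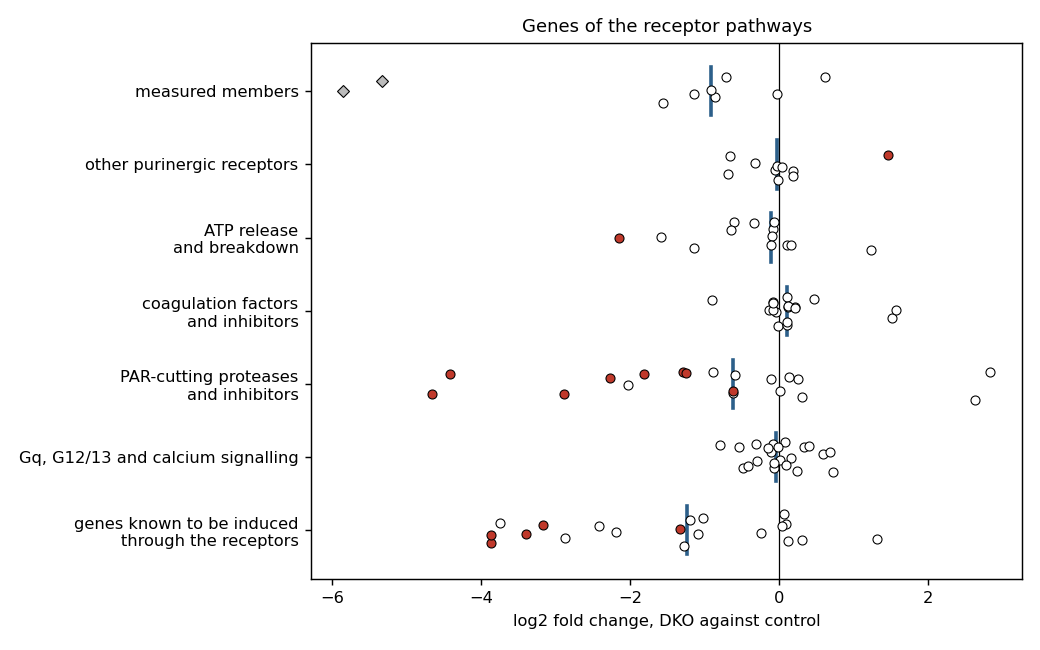
Log2 fold changes of DKO against control for the 9 measured genes and 6 pathway lists, 1 point per gene. Red points have an adjusted p below 0.05, grey diamonds are P2rx2 and F2rl2, which are described only, and vertical bars are list medians. PAR-cutting proteases, where PAR stands for protease-activated receptor, with their inhibitors held 8 red points among 19 genes, all on the lower side.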

How the data were processed

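The deposited intensities are linear values, 1 per probe set and array. PLIER 2.0 and Expression Console 1.1.1 of Affymetrix are listed in the submitters' processing notes without saying what each did. How the authors corrected background and normalized is not given in the sources used here. Of 35556 probe sets, 21789 carried 1 gene symbol, 1621 several and 12146 none; 21698 of the first matched RefSeq by Entrez identifier. Intensities were increased by 16, log2-transformed and quantile-normalized over all probe sets, so fold changes understate those of dim genes. The brightest probe set per gene gave 19938 genes, which were fitted with limma 3.58.1 in R 4.3.3, with a mean per group over 6 arrays, a variance trend and Benjamini-Hochberg adjustment over all genes. No low-value filter was used. The spread was pooled over the 3 groups, with 3 residual and 3.89 prior degrees of freedom, and 2 arrays a group limit the precision. The labels call the arrays of a group biological replicates. The fit was tested on 5 simulated data sets with independent noise and 200 genes changed in DKO against control. It recovered 49% of the 2-fold and 97% of the 4-fold changes, with a mean of 12.2 false calls. No columns were left without a sample. Named genes were the 10 receptor genes, Ovol1, Ovol2, Xist and Kdm5d, the called genes of each pathway list (up to 8, otherwise the 2 with the smallest p) and the 3 genes nearest to P2rx2 and F2rl2. Marker genes of cell types, the chromosomal neighbours and Egr1, Fos, Fosl1, Ccn1, Ccn2, Klk13 and Mmp13 were named after their values were seen. Members and lists were chosen with earlier results of these data known. Alternatives were other offsets, the values as deposited, the dimmest 30% left out, other eBayes settings, mean over probe sets, only the 4 arrays compared, a replicate block, Xist as a covariate, and each array left out.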

Additional observations from a re-analysis of the deposited data

How the results depend on the processing

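Over 16 alternatives, the count of the 9 genes called in DKO against control was 2 or 3 in all but the Xist covariate, with 0 called in limma and 2 at an unadjusted p below 0.05. Single arrays left out gave 2 to 3, also against Ovol1 KO, and 0 to 0 in Ovol1 KO against control. Of 432 values of single members under an alternative, 415 kept direction and side of the threshold. Sign changes were in genes that did not pass: with the Xist covariate P2rx7 became 0.46 in DKO against control and 0.87 in Ovol1 KO against control, and F2r 0.22 in the last contrast. With single arrays left out, F2rl3 ran from -0.11 to 0.053 in DKO against control and from -0.14 to 0.019 against Ovol1 KO, and in Ovol1 KO against control P2rx7 ran from -1.11 to 0.90, P2ry1 from -0.23 to 0.14, P2ry2 from -0.088 to 0.52 and F2r from -0.61 to 0.24. The cause was not tested. With the replicate number as a block, F2r passed in DKO against control (-1.14, adjusted p = 0.031), and all-gene calls were 1069 against 639 without it, and 805 against 429 for DKO against Ovol1 KO. The labels do not say what a number marks, and deviations of same-numbered arrays correlated at 0.15, 0.09 and 0.69 in the 3 contrasts. All-gene calls were 8 and 73 in the DKO contrasts with the Xist covariate, 258 to 735 and 88 to 738 with single arrays left out, and 738 in DKO against Ovol1 KO from 4 arrays only. Without a detection call, levels near the 10th percentile of 5.42 were not separated from background.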
